A study of Mus musculus with 6 samples.

Results

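The genes described here are 49 enzymes, carriers and regulators of fatty acid oxidation and of the peroxisome. They were taken by symbol from a table of 32544 genes measured by RNA sequencing in hand-dissected mouse kidney tubules. All 49 had a row, and 48 of them were among the 14311 genes that had 1 CPM or more in 3 or more libraries and were tested, where CPM is a gene's reads scaled to the library's total. By known role, 18 are mitochondrial, 18 are peroxisomal, 5 are acyl-CoA synthetases that activate fatty acids, and 8 have other roles. The other roles cover 3 thioesterases, 3 omega hydroxylases, 1 binding protein and 1 coactivator. Synthetases were classed by role whatever their organelle, so that class can hold mitochondrial proteins.

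The study compared 3 AA libraries with 3 DMSO libraries. AA animals received aristolochic acid I, a nephrotoxic plant compound that proximal tubule cells take up and that forms DNA adducts. DMSO animals received the solvent. All were C57Bl/6 mice that the study's text calls control mice, with no allele, sex or age given, and the text states a single dose of 3 mg/kg and collection at 24 hours for both groups. Each library holds 5 to 10 S2 and S3 proximal tubule pieces pooled from a kidney. The labels do not say whether replicates are separate animals, and the p-values measure only the spread between libraries.

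Proximal tubule cells live largely on fatty acids. A fatty acid is first bound to coenzyme A by a synthetase. Long chains then enter mitochondria through the carnitine shuttle and are shortened step by step by a dehydrogenase, a hydratase, a second dehydrogenase and a thiolase. Peroxisomes shorten very long and branched chains with oxidases that make hydrogen peroxide, which catalase breaks down, and pass the products on as carnitine esters. PPARα, with its partner RXR and the PGC-1 coactivators, switches on many of these genes.

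The libraries held from 13304877 to 17815915 counted reads in the AA group and from 15958557 to 31136251 in the DMSO group. A CPM is a share of all counted reads, and over all tested genes the log2 fold change had a median of 0.21. The medians of all members and of the mitochondrial, peroxisomal and activating genes are therefore also given relative to it. Changes of single genes and medians of the other lists are not, so a value near 0 lies below that of the median gene. Of these genes, 22.3% were called higher and 8.66% lower in AA at a limma adjusted p under 0.05. Summed markers of the proximal tubule lay at 11586, 9638 and 10659 CPM in the AA libraries, against 20452, 20865 and 16644 CPM in the DMSO libraries, with 6 of 11 genes lower and 0 higher. The S2 and S3 marker list, which holds the members Slc27a2 and Acsm3, had 8 of 12 genes lower and 1 higher. Kap, an androgen-regulated gene of the proximal tubule, made up most of its sum, at 19912, 23754 and 33079 CPM in the AA libraries, against 30409, 21273 and 19223 CPM in the DMSO libraries, with overlap and no call (log2 fold change 0.11, 95% confidence interval -0.79 to 1.01, limma adjusted p = 0.861). Without Kap and both members the other 9 genes summed to 2964, 3167 and 3872 CPM in the AA libraries, against 6116, 7726 and 4929.5 CPM in the DMSO libraries, with all AA sums below all DMSO sums. The part of these marker changes in the results on the members was not tested. In bulk tubules, fewer cells of a type and less RNA per cell cannot be told apart.

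Markers of other cells were present in all libraries. Their counts called higher stand beside 22.3% of all tested genes, and those called lower beside 8.66%. Thick ascending limb markers summed to 398, 1561 and 861 CPM in the AA libraries, against 588, 663 and 251 CPM in the DMSO libraries, with 3 of 8 higher and 0 lower, and AA replicate 2 stood highest. Endothelial markers summed to 367 to 425 CPM in AA and 235 to 356 CPM in DMSO libraries (3 of 9 higher, 0 lower). Stromal markers summed to 156 to 190 CPM in AA and 83.0 to 126 CPM in DMSO libraries (3 of 9 higher, 0 lower), and leukocyte markers to 170 to 227 CPM in AA and 181 to 271 CPM in DMSO libraries (4 of 8 higher, 0 lower). The part of these cells in the members' results was not tested. DMSO replicates 1 and 2 also stood apart from the other 4 libraries in 40 genes by more than 2 log2 units, 0 of them members, and 38 of the 40 carry predicted-gene, clone or pseudogene symbols. Results are therefore also given for a DMSO 3 fit, which adds a term for the pair, compares AA with DMSO replicate 3 alone and assumes that this lone library varies like the others.

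Of the 48 tested members, 15 were lower and 1 was higher in AA, while 32 did not pass the test. That is 31.2% called lower, beside 8.66% of all tested genes, and 2.08% called higher, beside 22.3%, and in either direction 16 members were called beside 30.9% of all tested genes. The called genes were spread over the pathway: Cpt1a, Acadm and Acad10 in mitochondria, Acox2, Acox3, Ehhadh, Amacr, Eci3, Crot and Abcd3 in peroxisomes, and Acsm1, Acsm3 and Slc27a2 among the synthetases, with Cyp4a12a and Ppargc1b beside them. Acot2, a thioesterase, was the gene called higher. The median log2 fold change over the 48 genes was close to 0, which is -0.21 relative to all tested genes, and 24 estimates were negative and 24 positive.

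Every AA library lay below every DMSO library in 14 of the 48 members, beside 13.0% of all tested genes. Every AA library lay above every DMSO library in 5, beside 33.4% of all tested genes. In the DMSO 3 fit the calls were 4 lower and 3 higher, and without AA replicate 2 they were 5 lower and 1 higher. Acox2, Amacr, Acsm1 and Ppargc1b kept their calls in all 19 alternative settings, and Abcd3 and Acot2 joined them in keeping the call whichever single library was left out. With no filter on low values 22445 genes were tested and 7 of the 16 calls remained, those 6 and Acsm3. Quantile normalization left 11 of the 16 calls, with 1 new call, Slc25a20, and ended those on Cpt1a (limma adjusted p = 0.0567), Acadm (0.0505), Ehhadh (0.0996), Crot (0.108) and Slc27a2 (0.285). Genes annotated on the opposite strand overlap Acsm1, Acsm3, Slc27a2, Acox3, Ehhadh, Eci3, Crot and Ppargc1b, and the strand setting of the counting is not given in the sources used here.

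**Figure D1:**
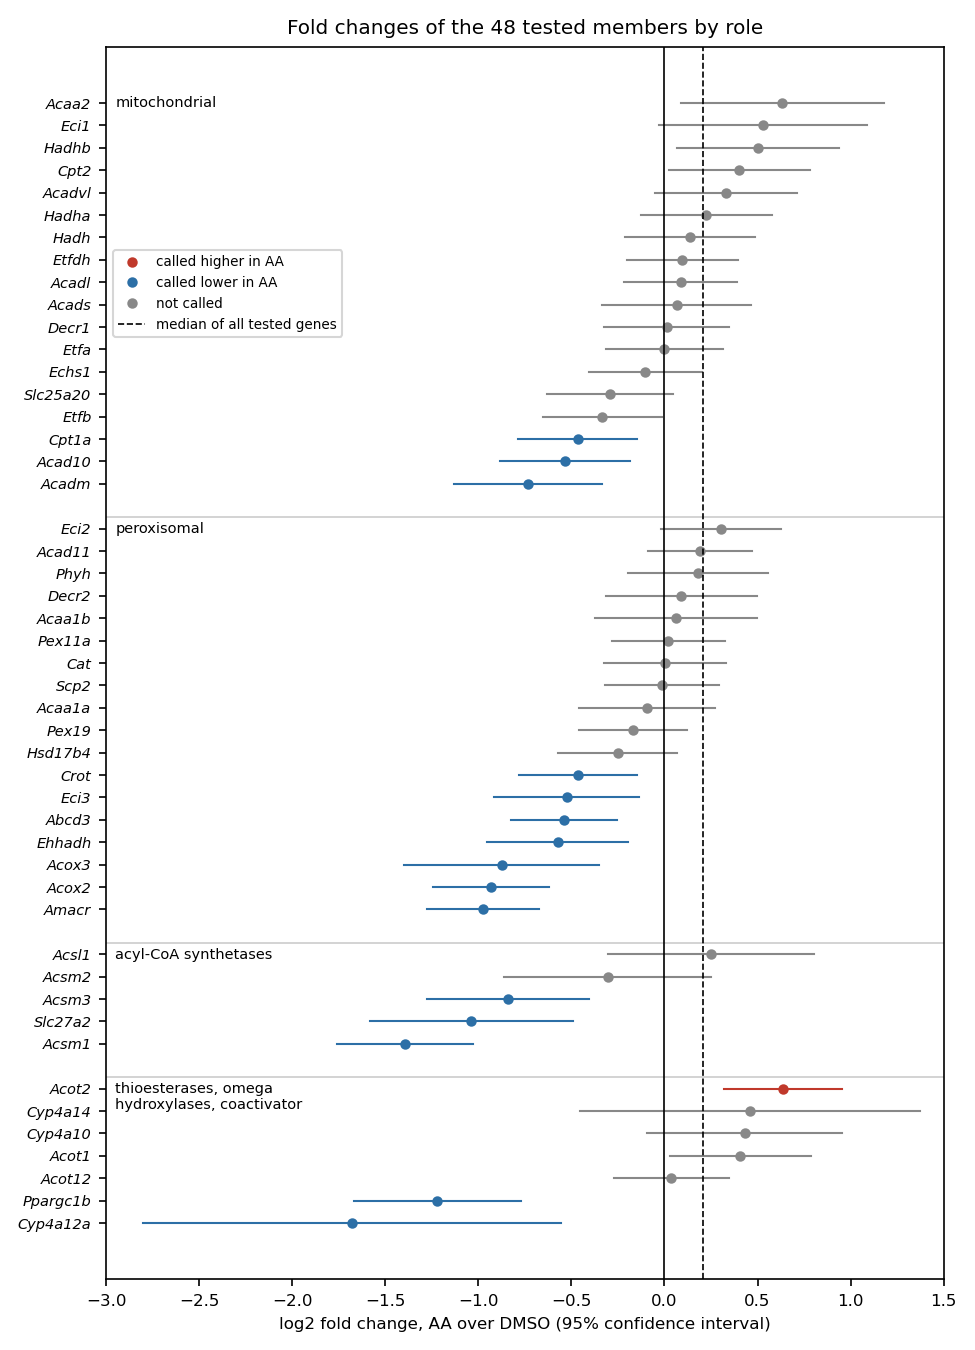
Log2 fold change of AA over DMSO (horizontal axis) for the 48 tested members, grouped by role, with 95% confidence intervals; the dashed line is the median of all tested genes, 0.21. The synthetases and the peroxisomal oxidases lie mostly to the left, down to -1.39 for Acsm1, and Acot2 at 0.64 is the only member called higher.

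Promoter sequence was looked at because PPARα with RXR binds a repeat of the letters AGGTCA with 1 base between the copies. That repeat, AGGTCA, any base and AGGTCA, was searched on both strands of the 250 bases before each RefSeq start in GRCm38.p6, allowing 2 mismatches among the 12 fixed letters. Such a match stood in 3.24% of 32851 promoters of all genes and in 5 of 44 promoters found for 40 of the 49 members, which is 11.4%. Those 5 belong to Acot12, Cat, Echs1, Etfa and Fabp1. Among the members called lower, 12 had a promoter in the set and 0 had a match, against 4 of 26 members that did not pass the test. A match is a description of letters and not a binding site.

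The 2 closest matches and 3 promoters of genes called lower are shown, 5′ to 3′ on the gene's strand, with the match in capitals. Acot12 (chr13:91741271-91741520, plus strand) and Fabp1 (chr6:71199629-71199878, plus strand) each hold 1 mismatch, on the strand opposite to the gene, starting 110 and 67 bases before the RefSeq start. Slc27a2 (chr2:126552774-126553023, plus strand), Acsm1 (chr7:119617562-119617811, plus strand) and 1 of 2 starts of Acox2 (chr14:8258840-8259089, minus strand) have no such match in this window. The RefSeq starts of Acot12, Fabp1, Slc27a2, Acsm1 and Acox2 lie inside the genes as GENCODE annotates them.
Acot12: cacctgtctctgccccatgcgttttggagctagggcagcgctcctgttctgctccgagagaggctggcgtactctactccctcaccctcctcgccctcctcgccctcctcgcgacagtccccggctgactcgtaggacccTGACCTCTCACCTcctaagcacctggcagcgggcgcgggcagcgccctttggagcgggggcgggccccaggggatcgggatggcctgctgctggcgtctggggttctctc
Fabp1: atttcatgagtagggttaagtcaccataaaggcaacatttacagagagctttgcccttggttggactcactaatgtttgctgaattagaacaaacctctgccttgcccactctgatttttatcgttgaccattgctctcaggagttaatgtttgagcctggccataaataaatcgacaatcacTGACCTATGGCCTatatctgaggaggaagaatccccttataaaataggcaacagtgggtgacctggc
Slc27a2: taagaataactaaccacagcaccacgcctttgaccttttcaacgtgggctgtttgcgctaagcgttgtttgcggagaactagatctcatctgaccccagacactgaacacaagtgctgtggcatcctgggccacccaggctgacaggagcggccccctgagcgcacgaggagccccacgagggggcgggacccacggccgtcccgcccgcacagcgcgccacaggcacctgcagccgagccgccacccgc
Acsm1: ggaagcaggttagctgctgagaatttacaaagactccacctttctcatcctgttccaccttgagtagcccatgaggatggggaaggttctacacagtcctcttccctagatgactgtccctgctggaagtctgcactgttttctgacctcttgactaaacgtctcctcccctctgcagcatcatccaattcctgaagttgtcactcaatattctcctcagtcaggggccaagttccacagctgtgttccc
Acox2: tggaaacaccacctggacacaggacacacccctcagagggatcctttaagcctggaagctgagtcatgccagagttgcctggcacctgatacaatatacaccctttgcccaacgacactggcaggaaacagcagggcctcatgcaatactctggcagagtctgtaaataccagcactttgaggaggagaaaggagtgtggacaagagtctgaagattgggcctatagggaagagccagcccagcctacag

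Among the mitochondrial genes, 3 of 18 fell (16.7%, beside 8.66% of all tested genes) and 0 rose (beside 22.3%). At an unadjusted p under 0.05, 3 others (Acaa2, Cpt2 and Hadhb) were higher and 1 other (Etfb) lower. By limma's voom on the recovered reads 0 were called higher. The median log2 fold change of the 18 genes was 0.08, or -0.13 beside all genes, and its sign depended on the scaling, as set out with the class comparison. Cpt1a, the liver-type carnitine palmitoyltransferase that commits long chains to the shuttle (chr19:3322334-3385733, plus strand), stood at 274, 263 and 243 CPM in the AA libraries, against 389.6, 395 and 302 CPM in the DMSO libraries. All 3 AA values lay below all 3 DMSO values, with DMSO replicate 3 the nearest (log2 fold change -0.47, SE 0.15, limma adjusted p = 0.0316). The call on Cpt1a was lost without AA replicate 1, 2 or 3 or DMSO replicate 1 or 2 (limma adjusted p from 0.0545 to 0.11), and in the DMSO 3 fit (0.504).

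Cpt2, which rebuilds the acyl-CoA inside the mitochondrion, went the other way without passing the test. Its level was 179, 249 and 177 CPM in the AA libraries, against 168, 164 and 124 CPM in the DMSO libraries, and each AA value lay above each DMSO value (log2 fold change 0.40, 95% confidence interval 0.02 to 0.78, limma adjusted p = 0.0989). The carnitine-acylcarnitine exchanger Slc25a20 overlapped between groups (log2 fold change -0.29, 95% confidence interval -0.63 to 0.04, limma adjusted p = 0.167). The ratio of Cpt1a to Cpt2 CPM within a library, not scaled for length, was 1.53, 1.06 and 1.37 in AA, against 2.32, 2.41 and 2.44 in DMSO libraries, a pair chosen after the values were seen and given with no test.

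Of the 5 acyl-CoA dehydrogenases, which take the first oxidation step at different chain lengths, 2 fell and 0 rose. That is 40% called lower, beside 8.66% of all tested genes, and 0% called higher, beside 22.3%. Acadm, the medium-chain enzyme (chr3:153922357-153944632, minus strand), was the most abundant mitochondrial member per exonic length, at 514 CPM per kb in AA and 861 CPM per kb in DMSO libraries. The level of Acadm was 1087, 932 and 1136 CPM in the AA libraries, against 2105, 1577 and 1602 CPM in the DMSO libraries, so the groups were clear of each other (log2 fold change -0.74, SE 0.18, limma adjusted p = 0.0115). The call on Acadm was lost without AA replicate 2 (limma adjusted p = 0.0612), in the DMSO 3 fit (0.146), with no filter on low values (0.0521) and with quantile normalization, where the log2 fold change was -0.49 (0.0505).

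Acad10, a less studied dehydrogenase (chr5:121621026-121660514, minus strand), stood at 103, 83.6 and 104 CPM in the AA libraries, against 143, 165 and 116 CPM in the DMSO libraries. Its groups did not overlap either (log2 fold change -0.53, SE 0.16, limma adjusted p = 0.027), but the call was lost without AA replicate 2 or DMSO replicate 1 or 2 (limma adjusted p from 0.0671 to 0.112) and in the DMSO 3 fit (0.441). Acadvl, the very long-chain enzyme, had 261, 309.7 and 257 CPM in the AA libraries, against 253, 247 and 167 CPM in the DMSO libraries. Each Acadvl value in AA lay above each in DMSO, and the difference missed the threshold (log2 fold change 0.33, 95% confidence interval -0.05 to 0.71, limma adjusted p = 0.167) but passed in the DMSO 3 fit (limma adjusted p = 0.0383), 1 of the 19 settings. Acadl and Acads, for long and short chains, overlapped between groups with log2 fold changes of 0.09 and 0.07. The ratio of Acadm to Acadvl CPM, not scaled for length, was 4.16, 3.01 and 4.41 in AA, against 8.32, 6.38 and 9.61 in DMSO libraries, again a pair chosen after the values were seen.

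None of the 5 genes for the later steps of the mitochondrial spiral passed the test. Hadh, the 3-hydroxyacyl-CoA dehydrogenase for shorter chains, had 319.9, 389 and 417 CPM in the AA libraries, against 369, 371 and 285 CPM in the DMSO libraries, and the groups overlapped (log2 fold change 0.14, limma adjusted p = 0.538). Acaa2, the thiolase that closes the cycle, had 48.0, 104 and 56.7 CPM in the AA libraries, against 48.3, 42.0 and 36.5 CPM in the DMSO libraries. AA replicate 2 stood well above the other 5 libraries (log2 fold change 0.63, 95% confidence interval 0.09 to 1.18, limma adjusted p = 0.0726), and Acaa2 was called higher without AA replicate 1 (limma adjusted p = 0.0308). Hadhb, the thiolase subunit of the trifunctional protein, was likewise highest in AA replicate 2, at 172, 249 and 178 CPM in the AA libraries, against 177, 141 and 107 CPM in the DMSO libraries (log2 fold change 0.50, 95% confidence interval 0.07 to 0.94, limma adjusted p = 0.0753), and was called higher without DMSO replicate 1 (limma adjusted p = 0.0338) and in the DMSO 3 fit (0.0389). AA replicate 2 is the library with the most thick ascending limb marker RNA, at 1561 CPM beside 398 and 861 CPM in AA replicates 1 and 3, and the part of those cells in these values was not tested. Hadha, the other subunit, and the hydratase Echs1 overlapped between groups, at log2 fold changes of 0.23 and -0.10.

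The helper enzymes for unsaturated chains and the electron carriers did not pass the test. Decr1, the mitochondrial dienoyl-CoA reductase, had 135, 183 and 151 CPM in the AA libraries, against 176, 151 and 138 CPM in the DMSO libraries, overlapping throughout (log2 fold change 0.01, limma adjusted p = 0.964). Eci1, the mitochondrial enoyl-CoA isomerase, had 111, 109.8 and 92.3 CPM in the AA libraries, against 94.2, 91.1 and 43.0 CPM in the DMSO libraries. DMSO replicate 3 was the lowest of the 6 Eci1 values, and the change passed in 1 of the 19 settings, the DMSO 3 fit (limma adjusted p = 0.00291, against 0.134 over all DMSO libraries). Etfb, a subunit of the electron transfer flavoprotein that carries electrons away from the dehydrogenases, had 243, 215 and 193 CPM in the AA libraries, against 249, 315 and 256 CPM in the DMSO libraries. The Etfb groups did not overlap, and the difference missed the threshold (log2 fold change -0.33, 95% confidence interval -0.65 to -0.01, limma adjusted p = 0.104). Its partner Etfa and the ubiquinone oxidoreductase Etfdh overlapped between groups, at log2 fold changes of -0.00 and 0.10.

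**Figure D2:**
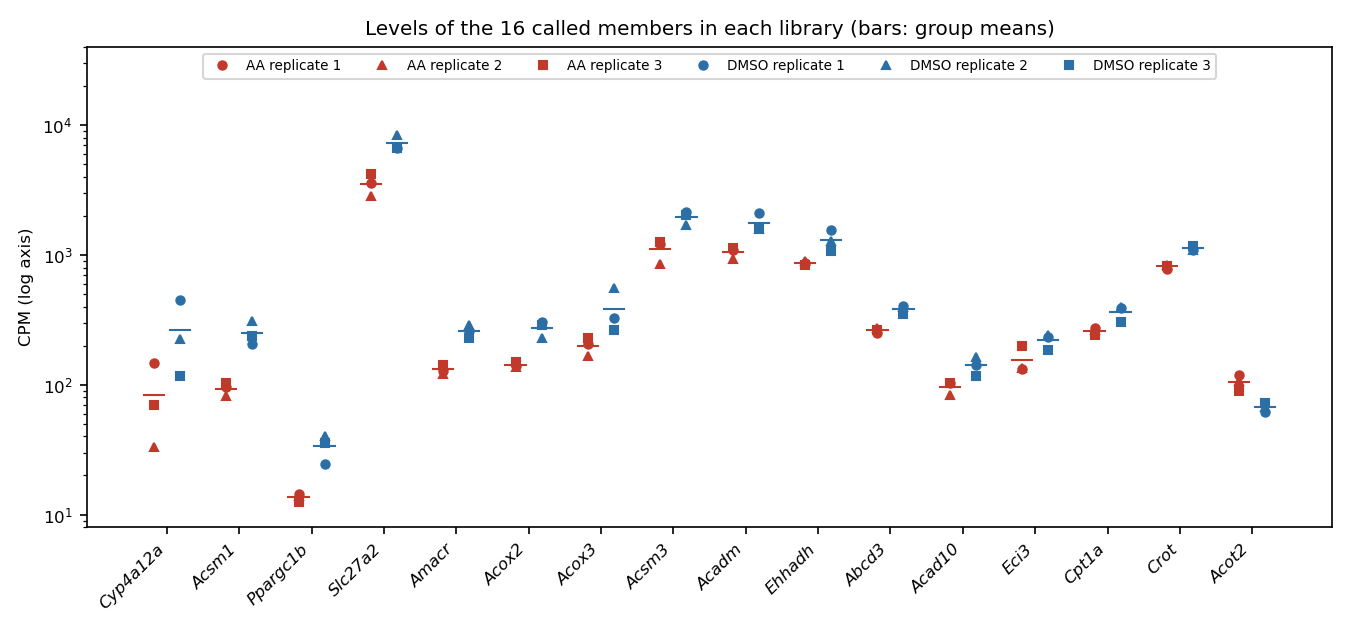
Level in each library (vertical log axis, CPM) of the 16 members called between groups, AA points left of DMSO points, with bars at the group means. The groups are clear of each other in all but Eci3 and Cyp4a12a, and Slc27a2 stands highest in both groups.

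Among the peroxisomal genes, 7 of 18 fell (38.9%, beside 8.66% of all tested genes) and 0 rose (beside 22.3%). These counts were the same at an unadjusted p under 0.05 and by voom. The class had a median log2 fold change of -0.13, or -0.34 beside all genes. Both oxidases of the list, which take the first step and make hydrogen peroxide, were among the 7 that fell. Acox2, the oxidase for branched chains and bile acid intermediates (chr14:8225511-8259353, minus strand), stood at 139.7, 137 and 151 CPM in the AA libraries, against 305, 230.0 and 289 CPM in the DMSO libraries. Every AA value was below every DMSO value by a wide gap (log2 fold change -0.93, SE 0.14, limma adjusted p = 9.71e-04). Acox3, a second branched-chain oxidase (chr5:35583040-35615352, plus strand), stood at 206, 165 and 228 CPM in the AA libraries, against 326, 556 and 265 CPM in the DMSO libraries. DMSO replicate 2 was far above the other DMSO libraries, and the groups still did not overlap (log2 fold change -0.87, SE 0.24, limma adjusted p = 0.0185). The call on Acox3 was lost without AA replicate 2 (limma adjusted p = 0.079) and in the DMSO 3 fit (0.355).

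Amacr, the racemase that turns branched acyl-CoAs into the form the oxidases accept (chr15:10981756-10996626, plus strand), stood at 129, 122 and 143 CPM in the AA libraries, against 261, 289.9 and 229 CPM in the DMSO libraries. Its groups lay far apart (log2 fold change -0.98, SE 0.14, limma adjusted p = 6.17e-04), and the change against DMSO replicate 3 alone was -0.80. Phyh, the hydroxylase that starts alpha oxidation of phytanic acid, had 298, 381 and 394 CPM in the AA libraries, against 383, 265 and 302 CPM in the DMSO libraries. The Phyh groups overlapped, with a confidence interval on both sides of 0 (log2 fold change 0.18, 95% confidence interval -0.19 to 0.56, limma adjusted p = 0.444).

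Ehhadh, the multifunctional enzyme of straight-chain peroxisomal oxidation (chr16:21761287-21787807, minus strand), stood at 865, 901 and 839 CPM in the AA libraries, against 1558, 1277 and 1082 CPM in the DMSO libraries. AA libraries lay close together and below all DMSO libraries (log2 fold change -0.57, SE 0.17, limma adjusted p = 0.0278), while the call was lost without AA replicate 1, 2 or 3 or DMSO replicate 1 (limma adjusted p from 0.0666 to 0.103) and in the DMSO 3 fit (0.401). Hsd17b4, the multifunctional enzyme for branched chains, did not pass (log2 fold change -0.25, 95% confidence interval -0.57 to 0.07, limma adjusted p = 0.208). The thiolases Acaa1a, Acaa1b and Scp2 overlapped between groups, at log2 fold changes of -0.10, 0.06 and -0.01. Acaa1a and Acaa1b are near-identical copies, and their summed level also gave no call (log2 fold change 0.03, SE 0.19, limma adjusted p = 0.933).

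Auxiliary peroxisomal enzymes were mixed. Eci3, an enoyl-CoA isomerase known in rodents for its kidney expression (chr13:34946614-34963810, minus strand), stood at 131, 136 and 198 CPM in the AA libraries, against 233, 243 and 186 CPM in the DMSO libraries. AA replicate 3 overlapped DMSO replicate 3 (log2 fold change -0.53, SE 0.18, limma adjusted p = 0.044). The close copy Eci2 had 143, 147 and 134 CPM in the AA libraries, against 128, 124 and 94.1 CPM in the DMSO libraries, each AA value above each DMSO value, with no call (log2 fold change 0.30, 95% confidence interval -0.02 to 0.62, limma adjusted p = 0.135). Reads can be split between the copies, and the summed level of Eci2 and Eci3 was not called (log2 fold change -0.18, SE 0.15, limma adjusted p = 0.396), a check added after the data were seen. The Eci3 call was also lost without AA replicate 1 or 2 or DMSO replicate 1 or 2 (limma adjusted p from 0.115 to 0.153) and in the DMSO 3 fit (0.465). Acad11, a dehydrogenase known in both organelles, had 288, 325 and 291 CPM in the AA libraries, against 277, 263 and 252 CPM in the DMSO libraries, all AA above all DMSO with no call (log2 fold change 0.19, 95% confidence interval -0.09 to 0.47, limma adjusted p = 0.273). Decr2, the peroxisomal dienoyl-CoA reductase, overlapped between groups at a log2 fold change of 0.09.

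Of the genes that move and protect peroxisomal contents, 2 of 5 fell (40%, beside 8.66% of all tested genes) and 0 rose (beside 22.3%). Abcd3, the membrane transporter that brings branched acyl-CoAs and bile acid intermediates into the peroxisome (chr3:121758774-121815302, minus strand), stood at 249, 276 and 264 CPM in the AA libraries, against 403, 398 and 349 CPM in the DMSO libraries. The spread within each group was small beside the gap (log2 fold change -0.54, SE 0.13, limma adjusted p = 0.0102), and the call was lost in the DMSO 3 fit (0.189). Crot, the carnitine octanoyltransferase that lets shortened chains leave (chr5:8966033-8997324, minus strand), stood at 779, 839.6 and 829 CPM in the AA libraries, against 1102, 1101 and 1171 CPM in the DMSO libraries. Here too the groups were apart (log2 fold change -0.46, SE 0.14, limma adjusted p = 0.0323), but the call was lost without AA replicate 1, 2 or 3 or DMSO replicate 1 or 3 (limma adjusted p from 0.0697 to 0.0901) and in the DMSO 3 fit (0.141).

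Catalase, which breaks down the hydrogen peroxide of the oxidases, did not pass the test. Cat had 1002, 1029 and 1079 CPM in the AA libraries, against 1006, 1114 and 989.8 CPM in the DMSO libraries, and the values of the groups interleaved (log2 fold change 0.00, 95% confidence interval -0.33 to 0.33, limma adjusted p = 0.998). A fall as large as the fitted one of Crot lies outside that interval, but the interval of Crot, -0.78 to -0.15, overlaps it. No test compared Crot with Cat. The ratio of Crot to Cat CPM, not scaled for length, was 0.777, 0.816 and 0.768 in AA, against 1.10, 0.988 and 1.18 in DMSO libraries, a pair chosen after the values were seen. Pex11a, a protein of peroxisome division that PPARα induces in liver, and Pex19, the carrier of peroxisomal membrane proteins, also overlapped between groups, at log2 fold changes of 0.02 and -0.17.

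Of the 5 synthetases, 3 fell (60%, beside 8.66% of all tested genes) and 0 rose (beside 22.3%). These counts were the same at an unadjusted p under 0.05 and by voom. The class had a median log2 fold change of -0.84, or -1.05 beside all genes. Slc27a2, the very long-chain acyl-CoA synthetase and fatty acid transporter FATP2 of the proximal tubule (chr2:126552407-126588243, plus strand), ranked first of the 49 genes per exonic length in both groups, at 1216 CPM per kb in AA and 2482 CPM per kb in DMSO libraries. The level of Slc27a2 was 3607, 2853 and 4183 CPM in the AA libraries, against 6633, 8398 and 6698 CPM in the DMSO libraries, with the groups well apart (log2 fold change -1.04, SE 0.25, limma adjusted p = 0.0102). The call on Slc27a2 was lost without AA replicate 2 (limma adjusted p = 0.0646), in the DMSO 3 fit (0.103), with no filter on low values (0.114) and with quantile normalization, where the log2 fold change was -0.61 (0.285).

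Of the 3 medium-chain synthetases, Acsm1 and Acsm3 fell and Acsm2 was not called, and no test compared them. Acsm1 (chr7:119607026-119662515, plus strand) had a larger fitted fall than any called member but Cyp4a12a, at 95.7, 82.6 and 102 CPM in the AA libraries, against 205, 308 and 238 CPM in the DMSO libraries. The highest AA value was less than the lowest DMSO value by a wide margin (log2 fold change -1.39, SE 0.17, limma adjusted p = 2.08e-04). Per exonic length Acsm1 stood 37th of the 49 genes in AA and 19th in DMSO libraries. Acsm3 (chr7:119760923-119787513, plus strand) stood at 1216, 851 and 1251 CPM in the AA libraries, against 2130.4, 1702 and 2044 CPM in the DMSO libraries, again with groups apart (log2 fold change -0.84, SE 0.20, limma adjusted p = 0.00955), and its call was lost without AA replicate 2 (limma adjusted p = 0.0539) and in the DMSO 3 fit (0.0607). Acsm2, at 419 CPM per kb in AA and 510.0 CPM per kb in DMSO libraries the highest of these per exonic length, had 2863, 2145 and 3721 CPM in the AA libraries, against 3973, 3834 and 2825 CPM in the DMSO libraries, with overlap and no call (log2 fold change -0.30, 95% confidence interval -0.86 to 0.25, limma adjusted p = 0.382). All 3 lie on chromosome 7 and are related in sequence, and how reads shared between them were divided is not given in the sources used here. Acsl1, the long-chain synthetase whose mitochondrial and microsomal forms feed oxidation, had 73.8, 122 and 61.9 CPM in the AA libraries, against 93.5, 64.0 and 55.0 CPM in the DMSO libraries, highest in AA replicate 2 and not called (log2 fold change 0.25, 95% confidence interval -0.30 to 0.80, limma adjusted p = 0.472).

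Of the 3 thioesterases, which release free fatty acid from coenzyme A, 1 rose and 0 fell. That is 33.3% called higher, beside 22.3% of all tested genes, and 0% called lower, beside 8.66%. Acot2, the mitochondrial form (chr12:83987861-83993873, plus strand), was the only member called higher, at 119, 107 and 90.1 CPM in the AA libraries, against 62.0, 67.5 and 72.2 CPM in the DMSO libraries. Each AA value was above each DMSO value (log2 fold change 0.64, SE 0.14, limma adjusted p = 0.00794). The call was kept whichever library was left out (highest limma adjusted p = 0.0339). It was lost when library medians were made equal (limma adjusted p = 0.0831) and with TMM factors. It was also lost in the DMSO 3 fit, at a log2 fold change of 0.53. The cytosolic copy Acot1 lies beside it (chr12:84009490-84018371, plus strand) and had 167, 177 and 111 CPM in the AA libraries, against 117, 107 and 111 CPM in the DMSO libraries, with no call (log2 fold change 0.41, 95% confidence interval 0.03 to 0.79, limma adjusted p = 0.0947) unless AA replicate 3 was left out (limma adjusted p = 0.0179). Summed over both copies, the level was 286, 284 and 202 CPM in the AA libraries, against 179, 175 and 183 CPM in the DMSO libraries (log2 fold change 0.50, SE 0.15, limma adjusted p = 0.031). Acot12, the cytosolic acetyl-CoA thioesterase, had 215, 216 and 192 CPM in the AA libraries, against 231, 174 and 205 CPM in the DMSO libraries, overlapping (log2 fold change 0.04, limma adjusted p = 0.866).

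Omega hydroxylases, cytochromes P450 that oxidise the far end of the chain and are induced by PPARα in liver, varied widely between libraries of 1 group. Cyp4a12a, a form known in mice as higher in males (chr4:115299046-115332815, plus strand), stood at 148, 33.1 and 70.0 CPM in the AA libraries, against 449, 223 and 116 CPM in the DMSO libraries. AA replicate 1 overlapped DMSO replicate 3, and both groups varied widely (log2 fold change -1.68, SE 0.51, limma adjusted p = 0.0294). The call was lost without AA replicate 2 or 3 or DMSO replicate 1 or 2 (limma adjusted p from 0.0685 to 0.115) and in the DMSO 3 fit (0.451), and the sex of the animals is not given in the sources used here. Summed with its near-identical copy Cyp4a12b the fold was similar (log2 fold change -1.56, SE 0.49, limma adjusted p = 0.0329). Cyp4a10 had 539, 868 and 523 CPM in the AA libraries, against 635, 361 and 436 CPM in the DMSO libraries. Cyp4a14 had 45.1, 75.6 and 39.9 CPM in the AA libraries, against 86.4, 24.9 and 23.6 CPM in the DMSO libraries. Both were highest among AA libraries in replicate 2 and did not pass the test (0.19 and 0.425 as limma adjusted p), while Cyp4a14 was called higher without DMSO replicate 1 (limma adjusted p = 0.0156).

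Fabp1, the liver fatty acid binding protein and a textbook PPARα target, was close to undetected. Its level was 0, 0.225 and 0.215 CPM in the AA libraries, against 0, 0.0321 and 0 CPM in the DMSO libraries, from 0 to 4 reads per AA library and from 0 to 1 per DMSO library, and it was not tested. No difference in Fabp1 was detectable at this depth.

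Ppargc1b, the coactivator PGC-1β, fell (chr18:61298136-61400431, minus strand). It stood at 14.4, 13.8 and 12.6 CPM in the AA libraries, against 24.6, 40.5 and 35.8 CPM in the DMSO libraries, with every AA library below every DMSO library (log2 fold change -1.22, SE 0.20, limma adjusted p = 0.00163). The related coactivator Ppargc1a had 39.6, 76.2 and 37.0 CPM in the AA libraries, against 51.0, 41.9 and 40.0 CPM in the DMSO libraries, where AA replicate 2 stood above all other libraries and the rest overlapped (log2 fold change 0.13, 95% confidence interval -0.41 to 0.66, limma adjusted p = 0.723). Ppara itself had 65.2, 53.3 and 59.2 CPM in the AA libraries, against 81.8, 97.5 and 82.3 CPM in the DMSO libraries, and fell (log2 fold change -0.55, SE 0.14, limma adjusted p = 0.0141), a call that went when AA replicate 2 was left out (adjusted p = 0.064) and in the DMSO 3 fit (0.175). Esrrg, an orphan nuclear receptor that works with PGC-1 coactivators, had 28.2, 57.9 and 28.6 CPM in the AA libraries, against 102, 85.8 and 89.0 CPM in the DMSO libraries, and fell by a wider fold (log2 fold change -1.33, SE 0.24, limma adjusted p = 0.00257).

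Over the list of 21 tested PPAR and PGC-1 regulators, 3 were lower (14.3%, beside 8.66% of all tested genes) and 2 higher (9.52%, beside 22.3%). The median log2 fold change of the list was 0.00. Sirt3, the mitochondrial deacetylase, was the third that fell (log2 fold change -0.57, SE 0.17, limma adjusted p = 0.0247), and it lost the call without AA replicate 1 or 2 or DMSO replicate 2 or 3 (limma adjusted p up to 0.0945) and in the DMSO 3 fit (0.0931). Prkaa1, a catalytic subunit of the energy sensor AMPK, averaged 52.4 ± 4.98 CPM in the AA libraries and 32.6 ± 3.30 CPM in the DMSO libraries (SD, n = 3 each) and rose (log2 fold change 0.67, SE 0.15, limma adjusted p = 0.00761). Sirt1, a nuclear deacetylase that acts on PGC-1α, also rose (log2 fold change 0.70, SE 0.21, limma adjusted p = 0.0256) and lost the call without AA replicate 2 or 3 or DMSO replicate 1 or 2 (limma adjusted p up to 0.0825). Neither Prkaa1 nor Sirt1 was called with library medians equalised (0.0719 and 0.145) or in the DMSO 3 fit (0.0866 and 0.46).

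Mitochondrial, peroxisomal and activating enzymes were set against each other within each library, where the library's scaling drops out. The mean log2(CPM + 1) of the 18 mitochondrial genes minus that of the 18 peroxisomal genes was -0.11, -0.01 and -0.16 in the AA libraries, against -0.28, -0.38 and -0.49 in the DMSO libraries. All AA values were above all DMSO values, so the mitochondrial genes stood higher beside the peroxisomal genes in AA. Group means of the difference were -0.10 ± 0.08 in AA and -0.38 ± 0.11 in DMSO libraries (SD, n = 3 each), a gap of 0.28 that was 0.39 in the DMSO 3 fit. Without Amacr, Eci2, Acad11 and Pex19, whose proteins also lie outside the peroxisome, the gap was 0.31. These are means over chosen genes, given with no test.

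The synthetases stood further apart. The mitochondrial minus activating difference was -1.72, -1.38 and -1.80 in the AA libraries, against -2.24, -2.31 and -2.43 in the DMSO libraries, with group means of -1.63 ± 0.22 in AA and -2.33 ± 0.10 in DMSO libraries (SD, n = 3 each). Peroxisomal minus activating differed by 0.41 between groups. The synthetases were classed by role and not by organelle, so these differences do not set mitochondrial proteins against proteins of other places. The share of genes called lower followed the same order, with 16.7% of mitochondrial, 38.9% of peroxisomal and 60% of activating genes, beside 8.66% of all tested genes. The difference in these shares was not tested.

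**Figure D3:**
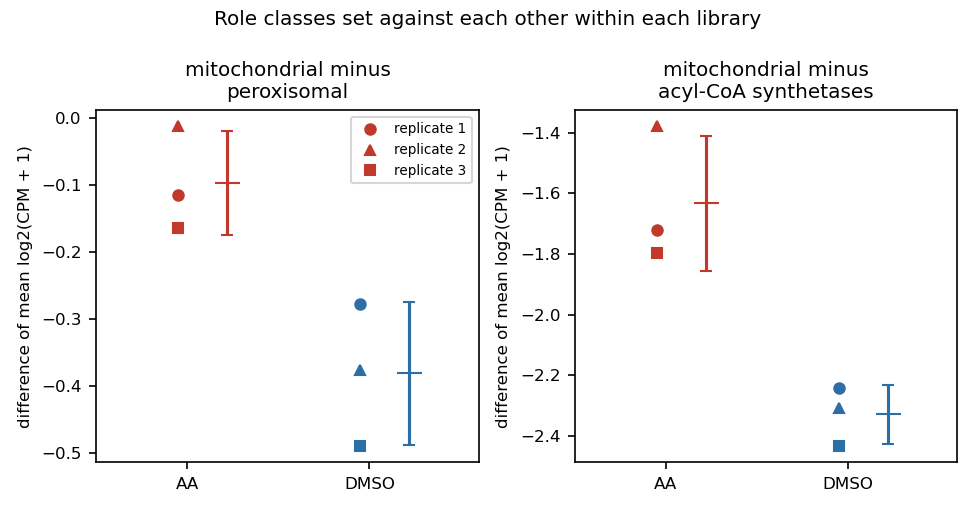
Difference of mean log2(CPM + 1) between role classes in each library (vertical axis), AA left of DMSO, for mitochondrial minus peroxisomal and mitochondrial minus activating genes, with bars at group means. The AA points lie above the DMSO points in both panels, by 0.28 and 0.70 on average.

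The class medians themselves moved with the scaling. The mitochondrial median was 0.08 as deposited and with quantile normalization, -0.18 with library medians equalised, -0.13 with TMM factors and 0.22 in the DMSO 3 fit. Peroxisomal medians were -0.13, -0.25, -0.39, -0.34 and -0.05 in the same order, and activating medians were -0.84, -0.61, -1.10, -1.05 and -0.91. The order of the 3 classes was thus the same under these 5 settings, while the sign of the mitochondrial median was not. Calls in mitochondrial genes ranged from 5 lower and 0 higher with library medians equalised or TMM factors to 0 lower and 3 higher (Acadvl, Hadhb and Eci1) in the DMSO 3 fit.

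As a share of all counted reads, the 49 genes took 1.93% in AA and 2.65% in DMSO libraries. Their summed level was 19034, 18123 and 20661 CPM in the AA libraries, against 27795, 27893 and 23758 CPM in the DMSO libraries, with all AA sums below all DMSO sums. The 5 synthetases made up the widest part of the gap, at 7856, 6054 and 9319.5 CPM in the AA libraries, against 13034, 14307 and 11861 CPM in the DMSO libraries, or 0.593 times the DMSO mean. Most of that gap came from Slc27a2, which alone averaged 3548 CPM in AA and 7243 CPM in DMSO libraries. Peroxisomal genes summed to 5597, 5929 and 5874 CPM in the AA libraries, against 7438, 7444 and 6486 CPM in the DMSO libraries, which is 0.814 times the DMSO mean. Mitochondrial genes summed to 4333, 4649 and 4429 CPM in the AA libraries, against 5717, 5144 and 4412 CPM in the DMSO libraries, where the groups overlapped through DMSO replicate 3. Acadm alone averaged 1052 CPM in AA and 1762 CPM in DMSO libraries, a wider gap than that between the mean mitochondrial sums, 4470.5 and 5091 CPM.

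**Figure D4:**
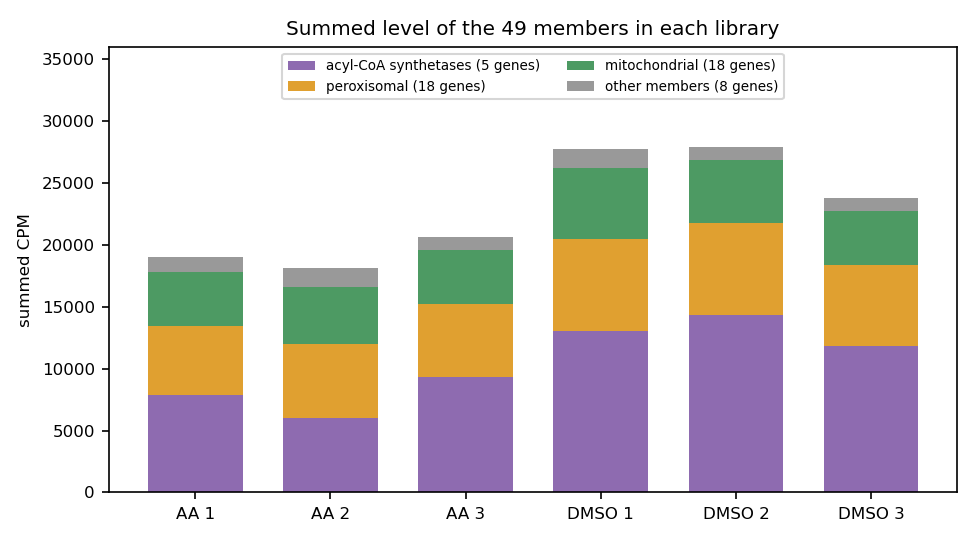
Summed CPM of the 49 members in each library, stacked by role class (vertical axis from 0), AA libraries left of DMSO libraries. The AA columns reach 18123 to 20661 CPM and the DMSO columns 23758 to 27893 CPM, and the synthetases make the widest difference.

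Other genes of the pathway were read from lists that hold no member. Of 13 known PPARα targets outside the members, 4 rose (30.8%, beside 22.3% of all tested genes) and 2 fell (15.4%, beside 8.66%). Pdk4, the kinase that shuts off pyruvate entry in fasting, had 107, 129 and 152 CPM in the AA libraries, against 21.9, 15.5 and 15.1 CPM in the DMSO libraries, with no approach between groups (log2 fold change 2.82, SE 0.18, limma adjusted p = 6.05e-06). Plin2, a coat protein of lipid droplets, had 372, 462 and 338 CPM in the AA libraries, against 46.2, 114 and 76.8 CPM in the DMSO libraries, and also rose (log2 fold change 2.37, SE 0.26, limma adjusted p = 1.40e-04). Cpt1b, the muscle-type carnitine palmitoyltransferase, rose at low levels, with 9.09, 19.9 and 6.75 CPM in the AA libraries, against 2.30, 3.79 and 0.877 CPM in the DMSO libraries (log2 fold change 1.93, SE 0.41, limma adjusted p = 0.00573). Per exonic length it stood at 4.12 CPM per kb in AA and 0.802 CPM per kb in DMSO libraries, beside 60.3 CPM per kb in AA and 83.9 CPM per kb in DMSO libraries for Cpt1a. Slc22a5, the carnitine importer OCTN2, fell (log2 fold change -0.63, SE 0.14, limma adjusted p = 0.00735), a call lost in the DMSO 3 fit (0.199).

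Further mitochondrial genes gave 6 of 21 higher (28.6%, beside 22.3% of all tested genes) and 1 lower (4.76%, beside 8.66%). Their median log2 fold change was 0.02. Cpt1c, a brain-type relative of Cpt1a, rose at low levels, averaging 5.05 ± 0.537 CPM in the AA libraries and 0.660 ± 0.0844 CPM in the DMSO libraries (SD, n = 3 each, log2 fold change 1.86, limma adjusted p = 4.31e-04). All 3 DMSO values were under 1 CPM, so Cpt1c passed the filter only through the AA libraries. Its call is 1 of the 6 counted as higher. Acad8, the isobutyryl-CoA dehydrogenase of valine breakdown, averaged 123 ± 7.42 CPM in the AA libraries and 67.0 ± 10.5 CPM in the DMSO libraries, and rose (log2 fold change 0.88, SE 0.15, limma adjusted p = 0.00163). The list also held Nudt19 and Hsdl2, whose proteins are known from peroxisomes. Nudt19, a hydrolase of coenzyme A that is abundant in mouse kidney, averaged 474 ± 66.7 CPM in the AA libraries and 1088 ± 337 CPM in the DMSO libraries and was the 1 gene that fell (log2 fold change -1.17, SE 0.21, limma adjusted p = 0.00243), a call lost in the DMSO 3 fit (0.0597). Hsdl2 rose (log2 fold change 0.88, SE 0.16, limma adjusted p = 0.00264).

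Peroxisomal enzymes outside the members gave 7 of 30 lower (23.3%, beside 8.66% of all tested genes) and 4 higher (13.3%, beside 22.3%). Their median log2 fold change was -0.09. Dao, the D-amino acid oxidase, averaged 209 ± 8.03 CPM in the AA libraries and 405 ± 58.5 CPM in the DMSO libraries, and fell (log2 fold change -0.94, SE 0.14, limma adjusted p = 8.82e-04). Pecr, the trans-2-enoyl-CoA reductase, averaged 159 ± 14.0 CPM in the AA libraries and 304 ± 38.3 CPM in the DMSO libraries, and fell (log2 fold change -0.92, SE 0.14, limma adjusted p = 0.00103). Agps, which makes the ether bond of plasmalogens, fell too (log2 fold change -0.61, SE 0.13, limma adjusted p = 0.00709), with an adjusted p of 0.0524 in the DMSO 3 fit, whereas the reductase Zadh2 rose (log2 fold change 1.05, SE 0.14, limma adjusted p = 5.32e-04).

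Genes of peroxisome assembly and membrane gave 5 of 25 lower (20%, beside 8.66% of all tested genes) and 1 higher (4%, beside 22.3%). Their median log2 fold change was -0.11. Pex14, part of the docking site for imported enzymes, had 29.9, 26.3 and 29.5 CPM in the AA libraries, against 55.4, 64.1 and 51.2 CPM in the DMSO libraries, and fell (log2 fold change -0.97, SE 0.15, limma adjusted p = 0.00111). Pxmp2 and Pxmp4, membrane proteins of the peroxisome, fell by less (log2 fold change -0.79, limma adjusted p = 0.00578 for Pxmp2 and log2 fold change -0.60, limma adjusted p = 0.00481 for Pxmp4), and neither kept the call in the DMSO 3 fit (0.0879 and 0.0528). Slc25a17, the peroxisomal carrier of coenzyme A and related cofactors, had 186, 211 and 196 CPM in the AA libraries, against 119, 120.2 and 103 CPM in the DMSO libraries, and rose (log2 fold change 0.79, SE 0.13, limma adjusted p = 0.00141).

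Of 17 other synthetases, thioesterases and uptake genes, 5 rose (29.4%, beside 22.3% of all tested genes) and 3 fell (17.6%, beside 8.66%). Acsm5, a further medium-chain synthetase, averaged 93.5 ± 12.3 CPM in the AA libraries and 189.6 ± 32.5 CPM in the DMSO libraries, and fell (log2 fold change -1.01, SE 0.16, limma adjusted p = 0.00118). Acss2, the cytosolic acetyl-CoA synthetase, fell (log2 fold change -0.83, SE 0.16, limma adjusted p = 0.00399) and lost the call in the DMSO 3 fit (0.0788). Acsl4, the synthetase that favours arachidonic acid, rose (log2 fold change 1.10, SE 0.27, limma adjusted p = 0.0118), with its highest value, 81.8 CPM, in AA replicate 2, and lost the call in the DMSO 3 fit (0.109). Acbd3, an acyl-CoA binding domain protein of the Golgi, rose as well (log2 fold change 0.76, SE 0.14, limma adjusted p = 0.00275) and lost it there too (0.062). Among 8 other CYP4 genes 0 passed in limma and 0 in voom, with 2 higher at an unadjusted p under 0.05 (Cyp4f16 and Cyp4v3).

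Ketone body enzymes gave 3 of 7 lower (42.9%, beside 8.66% of all tested genes) and 0 higher (beside 22.3%). Aacs, which activates acetoacetate in the cytosol, had 186, 87.1 and 160.4 CPM in the AA libraries, against 329, 509.7 and 499 CPM in the DMSO libraries, and fell (log2 fold change -1.66, SE 0.26, limma adjusted p = 0.00122). Bdh1 and Bdh2, dehydrogenases of 3-hydroxybutyrate, fell by less (log2 fold change -0.58, limma adjusted p = 0.0256 for Bdh1 and log2 fold change -0.71, limma adjusted p = 0.00317 for Bdh2). Bdh1 lost its call without AA replicate 1 or 2 or DMSO replicate 2 (limma adjusted p up to 0.111), and both lost it in the DMSO 3 fit (0.263 and 0.0857).

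On the synthesis side 1 of 14 genes fell (7.14%, beside 8.66% of all tested genes) and 1 rose (7.14%, beside 22.3%). At an unadjusted p under 0.05, Acacb, the relative of Acaca, was also higher, and Fads1, Fads2 and Srebf1 were also lower. Acaca, the acetyl-CoA carboxylase that makes malonyl-CoA, the inhibitor of Cpt1a, had 31.3, 26.4 and 29.4 CPM in the AA libraries, against 77.5, 75.5 and 84.3 CPM in the DMSO libraries, and fell (log2 fold change -1.42, SE 0.14, limma adjusted p = 7.21e-05). Scd2, a stearoyl-CoA desaturase, had 23.6, 31.7 and 26.7 CPM in the AA libraries, against 11.9, 7.58 and 10.1 CPM in the DMSO libraries, and rose (log2 fold change 1.39, SE 0.21, limma adjusted p = 9.60e-04). Over the 9 lists 47 genes were called, of which 30 kept the call whichever single library was left out and 18 kept it in the DMSO 3 fit.

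**Figure D5:**
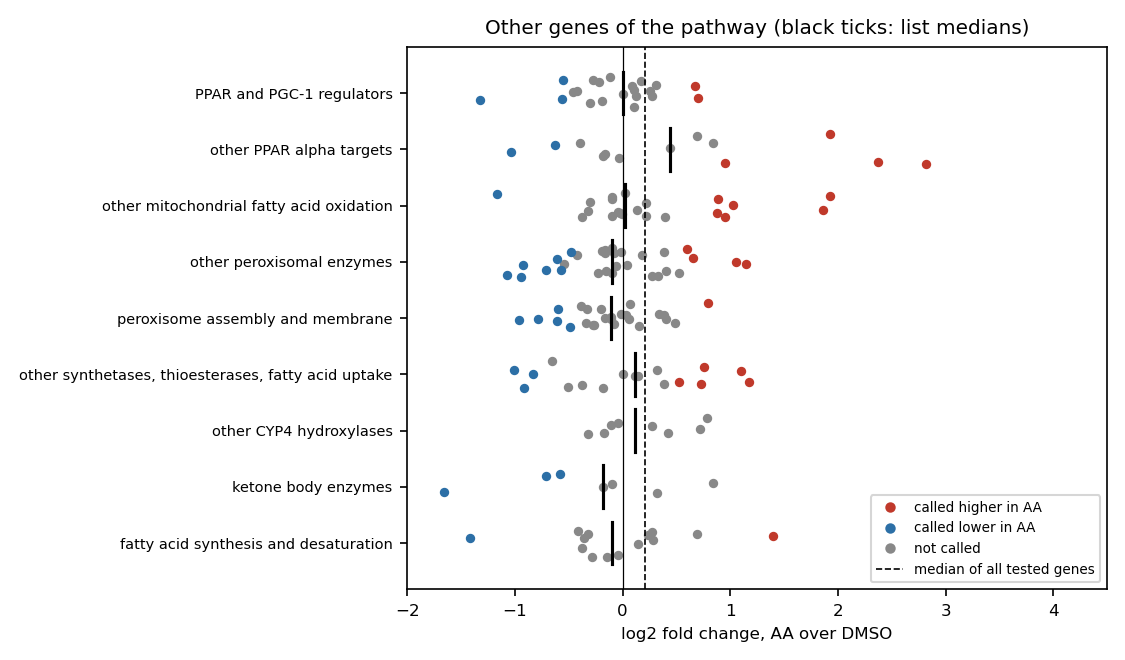
Log2 fold change of AA over DMSO (horizontal axis) for the tested genes of the 9 other lists, 1 row per list, with black ticks at the list medians and a dashed line at the median of all tested genes, 0.21. The list medians lie between -0.18 for ketone body enzymes and 0.45 for other PPARα targets, and Pdk4 at 2.82 is the highest point.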

How the data were processed

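The deposited table holds log10(CPM + 1) for 32544 genes in 6 libraries, made by the authors, per the file headers and values. RNA came from hand-dissected tubules by PicoPure and libraries from a TruSeq Stranded mRNA kit, per the labels' protocols. The submitters' processing notes name bcl2fastq 2.19, kallisto with no version, and genome build mm10; the summing of transcripts to genes and the annotation used were not given in the sources used here. Undoing the base-10 logarithm gave CPM, and all values above 0 came out as whole reads within 0.1 read (100% in each library), so depth was read from the table. Library totals ran from 13304877 to 31136251 reads.

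CPM values were tested as log2(CPM + 1) with limma 3.58.1 in R 4.3.3 (moderated test with variance trend, two-sided, Benjamini-Hochberg over the 14311 genes of 1 CPM or more in 3 or more libraries, called at adjusted p under 0.05). The pseudocount of 1 CPM understates changes of low genes. The DMSO 3 fit adds a term that sets DMSO replicates 1 and 2 apart. Because the deposited unit is a logarithm, limma's voom on the recovered reads was the count-based alternative. The labels do not say whether a shared replicate number pairs libraries of the groups. Deviations of same-numbered libraries correlated at -0.109, -0.156 and -0.0151, and those of differently numbered ones at -0.0738 to 0.194. With so few libraries these values cannot show whether libraries were paired.

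Coordinates and exonic lengths are from GENCODE M21 (mm10), which matched all 49 members, and promoters from RefSeq (GRCm38.p6). The members and lists were chosen with earlier results of these data known, so no set test, list score or list-wise p was computed. Library values are given for each called member and for the members with the highest mean CPM and the largest change of each role, from each other list up to 4 called genes with the smallest adjusted p are named, and Ppara and Ppargc1a are always named; 1 further gene named by the rule is not reported here. Summed copies were a check added after the data were seen.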

Additional observations from a re-analysis of the deposited data

How the results depend on the processing

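None of the 48 tested members reversed its sign while called. Of the settings of the called members, 236 kept the call and 68 lost it, and 15 settings of the other members gained one. Genes called numbered 4426 as reported, 1481 in the DMSO 3 fit and 2645 to 3980 when 1 library was left out. Members called lower numbered 15 as reported, 6 with no filter (more genes tested), 4 in the DMSO 3 fit and 5 to 14 with 1 library left out, the lowest without AA replicate 2 and 9 without DMSO replicate 1. Members called higher numbered 1 as reported, 0 with library medians equalised, 0 with TMM factors, 3 in the DMSO 3 fit and 1 to 3 with 1 library left out. The gap between mitochondrial and peroxisomal genes was 0.28, 0.39 in the DMSO 3 fit and 0.23 to 0.34 with 1 library left out. The member median was -0.26 with library medians equalised and -0.21 with TMM factors, which shift all genes downwards; Slc25a20, Etfb and Hsd17b4 were then also called lower, and Pex19 with medians equalised.

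Scaling took the median of all tested genes from 0.21 to -0.05 with medians equalised, -0.01 with quantile normalization and 0.02 with TMM factors, and moved the balance of all calls: 3187 higher and 1239 lower as deposited, 1606 and 2422 with medians equalised, 1822 and 2077 with quantile normalization, and 1932 and 2064 with TMM factors. Whether the replicate numbers pair the libraries is not known. With the replicate block 3813 genes were called and 10 members were lower and 1 higher, all 11 among the 16. The cause of these changes was not tested. With 3 libraries a group, the 32 members without a call are not shown to be alike in both groups. Fabp1 was untested because its level was too low for the CPM filter.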

Other observations

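Some within-library ratios of a member to another member or to Ppargc1a, chosen after the values were seen and given with no test, stood apart between groups. The ratio of Acsm1 to Acsm2 CPM was 0.0334, 0.0385 and 0.0275 in the AA libraries, against 0.0515, 0.0804 and 0.0841 in the DMSO libraries. The ratio of Ppargc1b to Ppargc1a CPM was 0.362, 0.181 and 0.340 in the AA libraries, against 0.483, 0.965 and 0.894 in the DMSO libraries. The ratio of Acox2 to Scp2 CPM was 0.200, 0.181 and 0.212 in the AA libraries, against 0.409, 0.302 and 0.427 in the DMSO libraries. Such ratios do not depend on a library's scaling.

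Markers of S1, another proximal tubule segment, and of the remaining cell types had low sums beside the list for all proximal tubule segments. S1 markers summed to 723 to 865 CPM in AA and 727 to 1108 CPM in DMSO libraries, with 1 of 8 higher and 1 lower. Their median log2 fold change was 0.42, against -0.87 for the S2 and S3 list and -0.63 for the list of all segments. Thin limb markers, a list that shares Aqp1 with the proximal tubule list, summed to 1178 to 1693 CPM in AA and 1483 to 1613 CPM in DMSO libraries (3 of 6 higher). Aqp1 made up most of that sum, and the list without it summed to 40.1, 33.5 and 24.2 CPM in the AA libraries, against 7.28, 3.95 and 5.26 CPM in the DMSO libraries. Distal convoluted tubule markers summed to 50.1 to 131 CPM in AA and 61.2 to 84.3 CPM in DMSO libraries, with 0 of 4 called by limma, 1 higher at an unadjusted p under 0.05 and 1 by voom. Principal cell markers summed to 75.6 to 121 CPM in AA and 89.2 to 189 CPM in DMSO libraries (4 of 9 higher, 1 lower), and intercalated cell markers to 19.5 to 41.2 CPM in AA and 15.1 to 21.3 CPM in DMSO libraries (2 of 8 higher). Podocyte markers summed to 93.1 to 143 CPM in AA and 63.5 to 87.5 CPM in DMSO libraries (1 of 7 higher). Adipocyte markers summed to 46.4 to 65.9 CPM in AA and 22.8 to 52.1 CPM in DMSO libraries (1 of 4 higher). All these counts stand beside 22.3% of all tested genes called higher and 8.66% called lower.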
